A study of Homo sapiens with 10 samples.

Results

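Expression of 4 cell cycle genes, FOXM1, MKI67, CCNB1 and STIL, was examined in HCT116, an established human colorectal carcinoma line, and in 4 lines labelled as mutants of it. The genes were taken by symbol from the annotation of the array's probe sets, the groups of probes that each report 1 value. They are 4 of the 14884 genes named there, each with 1 probe set (16760048 for FOXM1, 16719515 for MKI67, 16985599 for CCNB1 and 16686796 for STIL). The lines were wild type (WT), the ORC1 mutants ORC1B14 and ORC1BP32 and the ORC2 mutants ORC2B2 and ORC2BP8, all untreated and each with 2 Affymetrix arrays, titled biological replicate 1 and 2. Both proteins belong to the origin recognition complex, which marks the sites where DNA replication begins. The labels give neither the kind of mutation nor whether a line is 1 clone, and beyond the word biological they do not say whether the replicates were separate cultures, so the spread behind each p-value is that of these samples alone and part of it may be technical.

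FOXM1 is a forkhead transcription factor that is switched on as cells pass from S phase to mitosis and that activates genes of the G2 phase and mitosis together with MYBL2 and the MuvB complex. CCNB1 encodes cyclin B1, which binds CDK1 to form the kinase that drives entry into mitosis, and is one of the classical genes under this control. MKI67 encodes Ki-67, a protein that coats mitotic chromosomes and is stained in tumour sections, those of the colon included, to count proliferating cells. STIL is a centriole assembly factor that works with the kinase PLK4 when centrioles are copied during S phase, and it is degraded at the end of mitosis.

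In G2 and mitotic genes, the stretch before the start site often holds CCAAT boxes, which bind NF-Y, and a CHR element, which binds the MuvB complex. The 250 bases before the start are shown for the 3 of 4 genes matched in the RefSeq promoter table (GRCh38.p14), 5′ to 3′ on the gene's strand, to set the letters of the 3 regions side by side. Capitals mark CCAAT or its reverse complement ATTGG, and a single form of the CHR letters, TTTGAA or TTCAAA. They lie at chr10:128126424-128126673 (minus strand) for MKI67, chr5:69166900-69167149 (plus strand) for CCNB1 and chr1:47314148-47314397 (minus strand) for STIL.
MKI67: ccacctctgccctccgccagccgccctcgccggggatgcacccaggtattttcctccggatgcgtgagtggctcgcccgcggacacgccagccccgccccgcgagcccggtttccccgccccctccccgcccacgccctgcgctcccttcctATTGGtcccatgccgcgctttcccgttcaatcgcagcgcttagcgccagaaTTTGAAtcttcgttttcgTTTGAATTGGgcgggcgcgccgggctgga
CCNB1: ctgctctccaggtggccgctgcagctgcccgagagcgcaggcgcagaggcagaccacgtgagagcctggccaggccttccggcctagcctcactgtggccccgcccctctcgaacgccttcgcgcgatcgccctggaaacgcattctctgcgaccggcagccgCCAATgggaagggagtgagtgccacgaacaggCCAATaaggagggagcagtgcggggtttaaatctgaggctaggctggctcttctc
STIL: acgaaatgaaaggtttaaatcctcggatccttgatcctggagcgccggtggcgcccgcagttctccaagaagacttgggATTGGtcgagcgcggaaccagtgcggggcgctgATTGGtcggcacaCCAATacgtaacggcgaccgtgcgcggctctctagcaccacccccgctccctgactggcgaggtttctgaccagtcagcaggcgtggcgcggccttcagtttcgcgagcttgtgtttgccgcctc
All 3 stretches held CCAAT on 1 strand or the other. In MKI67 it lay as the reverse complement 98 to 94 and 24 to 20 bases before the start, in CCNB1 as printed 87 to 83 and 55 to 51 bases before it, and in STIL as the reverse complement at 171 to 167 and 138 to 134 and as printed at 125 to 121. TTTGAA was found in MKI67 alone of the 3, at 47 to 42 and at 29 to 24 bases before the start, where the second match overlaps ATTGG by 1 base. Other forms of the CHR were not searched, so the search cannot show that CCNB1 or STIL lacks a CHR. An E2F motif (TTCCCGC) and a forkhead motif (TGTTTAC), searched on both strands, matched none of the 3. Each was searched in this 1 form alone, so the search cannot show that the 3 lack E2F or forkhead motifs. Over 35116 RefSeq promoter stretches of the same 250 bases, CCAAT was present in 32.0%, TTTGAA in 13.3%, TTCCCGC in 5.52% and TGTTTAC in 2.98%. These matches describe letters and not bound sites.

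Across all 10 arrays the medians of all probe sets lay between 3.94 and 3.96 on replicate 1 arrays and between 3.87 and 3.89 on replicate 2 arrays, so differences within each replicate number are given beside the pooled ones. All 8 colorectal epithelial markers named on the array (of 12 listed), EPCAM and KRT20 among them, were at or above the array median on all 10 arrays. At their lowest, VIL1 (3.93 to 4.44) and KRT20 (3.98 to 6.58) came close to the array median. Of 8 named fibroblast, blood cell and endothelial markers, 6 were below it on every array (DCN, LUM, CD14, LYZ, PECAM1 and KDR), VWF was above it on 1 array, and THY1 lay between 4.16 and 4.82 and above it on all 10. None of ORC1 to ORC6 was named (0 of 6), so the labels were not checked against the mutated genes. All 4 cell cycle genes passed the filter on dim probe sets, as did 10797 genes in all. The tests were made with limma over these 10797 genes, and a gene was called at a Benjamini-Hochberg adjusted p under 0.05.

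FOXM1 was higher than in WT on all 8 mutant arrays, and it rose past the threshold in ORC2BP8, in the mean of both ORC2 lines and in the mean of all 4 mutant lines. Its log2 values were 8.21 and 8.46 in WT, 9.25 and 9.13 in ORC1B14, 9.004 and 8.92 in ORC1BP32, 9.13 and 8.90 in ORC2B2, and 9.15 and 9.29 in ORC2BP8 (replicate 1, then replicate 2). The lowest mutant array, ORC2B2 replicate 2, stood above the higher WT array, while the mutant lines lay close to one another. Line means in rising order were 8.34 ± 0.17 in WT, 8.96 ± 0.060 in ORC1BP32, 9.01 ± 0.16 in ORC2B2, 9.19 ± 0.086 in ORC1B14 and 9.22 ± 0.095 in ORC2BP8 (SD, n = 2). The arrays of ORC1BP32 and ORC2B2 overlapped, as did those of ORC1B14 and ORC2BP8. ORC2B2 and ORC1B14 were 0.18 apart in their means, but their nearest arrays nearly touched (9.127 in ORC2B2 and 9.129 in ORC1B14).

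The mean of all 4 mutant lines exceeded WT in FOXM1 by 0.76 on the log2 scale (SE 0.14, 95% interval 0.46 to 1.06, 1.70-fold, limma adjusted p = 0.0361), with 0.92 within replicate 1 and 0.60 within replicate 2. FOXM1 was the 1 of the 4 genes called there, beside 1.02% of all genes tested. In ORC2BP8 FOXM1 rose by 0.89 (SE 0.17, 95% interval 0.50 to 1.27, 1.85-fold, limma adjusted p = 0.0461), and 0.935% of all genes were called. In the mean of both ORC2 lines it rose by 0.78 (SE 0.15, limma adjusted p = 0.0423), beside 1.07% of all genes. A change in the share of cells in any phase of the cycle and a change in RNA per cell cannot be told apart in bulk RNA. This holds for FOXM1 and for every gene below.

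In the main fit, which has no term for the replicate number, FOXM1 was not called in the other lines, where its differences from WT had the same sign. It stood 0.85 above WT in ORC1B14 (95% interval 0.47 to 1.24, limma adjusted p = 0.0619), 0.63 in ORC1BP32 (limma adjusted p = 0.271), 0.68 in ORC2B2 (limma adjusted p = 0.136) and 0.74 in the mean of both ORC1 lines (limma adjusted p = 0.0658). None of the 4 genes (0 of 4) was called in these comparisons, where 0.583%, 0.0185%, 0.333% and 0.269% of all genes were called, in the same order. At an unadjusted p under 0.05, 1, 2, 2 and 1 of the 4 genes passed in them, beside 17.0%, 10.1%, 11.7% and 16.3% of all genes. Between lines, FOXM1 differed by -0.04 for the ORC1 lines minus the ORC2 lines (95% interval -0.31 to 0.23).

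The FOXM1 calls sat near the threshold and rested on most of the arrays. In ORC2BP8 the call ended without either array of WT, ORC1BP32, ORC2B2 or ORC2BP8 (limma adjusted p 0.0614 to 0.261), in the mean of both ORC2 lines and in that of all 4 lines without either array of WT, ORC1BP32 or ORC2B2 or without ORC2BP8 replicate 2 (0.0702 to 0.313 and 0.0530 to 0.311), and in all 3 when arrays were centred on their medians (0.0703, 0.0658 and 0.0542). The difference itself stayed between 0.64 and 0.88 in the mean of all 4 lines whichever array was left out. A fit with a replicate block, which allows for the replicate number, kept all 3 calls (limma adjusted p = 0.0166, 0.0136 and 0.0103). It also called FOXM1 in ORC1B14 (0.0197) and in the mean of both ORC1 lines (0.0224). That fit called more of all genes too, 709 in place of 110 in the mean of all 4 lines.

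**Figure D1:**
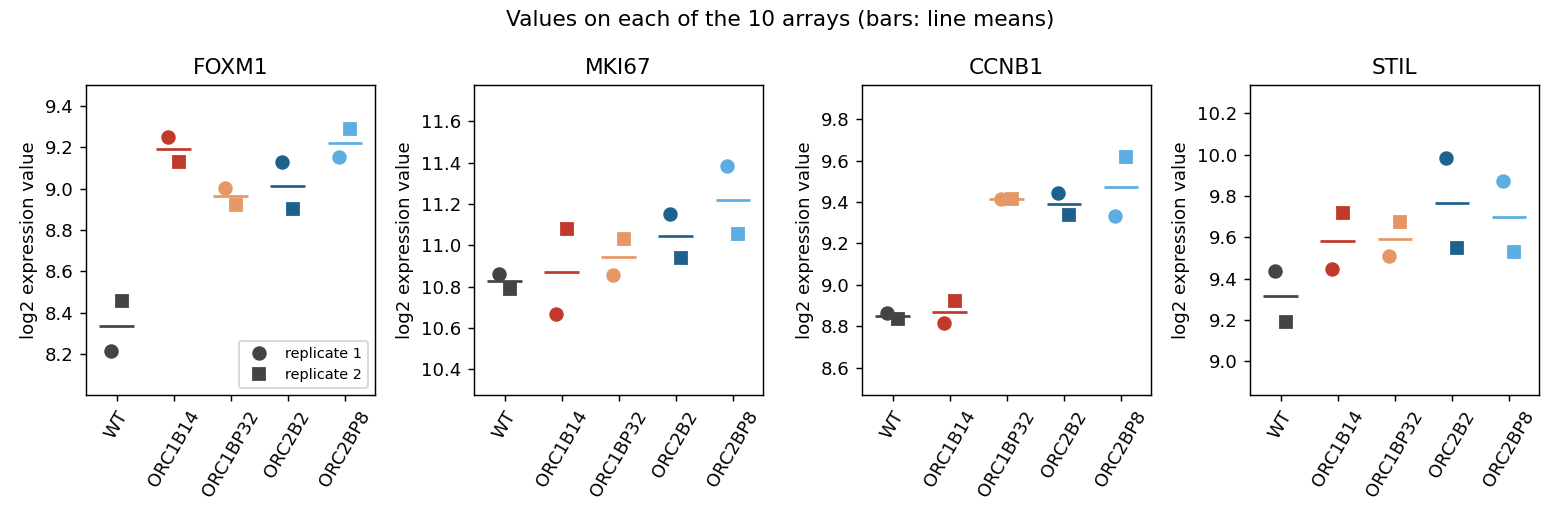
Log2 expression values (vertical axis, 1 panel per gene, each spanning 1.5 units) of FOXM1, MKI67, CCNB1 and STIL on the 2 arrays of each line, with circles for replicate 1, squares for replicate 2 and bars for the line means. FOXM1 in WT (8.21 and 8.46) lies below all 8 mutant arrays, and CCNB1 in ORC1B14 (8.82 and 8.92) lies beside WT (8.86 and 8.84).

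CCNB1 was higher than in WT in 3 of the 4 mutant lines, by 0.54 to 0.63, and stood at the WT level in ORC1B14. None of these differences passed the threshold in the fit without a replicate block. Its log2 values were 8.86 and 8.84 in WT, 8.82 and 8.92 in ORC1B14, 9.41 and 9.42 in ORC1BP32, 9.44 and 9.34 in ORC2B2, and 9.33 and 9.62 in ORC2BP8. The arrays formed a low set of WT and ORC1B14, which overlapped, and a high set of the other 3 lines, which overlapped one another. The means were 8.85 ± 0.018 in WT, 8.87 ± 0.075 in ORC1B14, 9.39 ± 0.072 in ORC2B2, 9.42 ± 0.0017 in ORC1BP32 and 9.48 ± 0.20 in ORC2BP8 (SD, n = 2), with a step of 0.52 between ORC1B14 and ORC2B2.

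Against WT, CCNB1 differed by 0.02 in ORC1B14 (95% interval -0.34 to 0.38), 0.57 in ORC1BP32 (0.20 to 0.93), 0.54 in ORC2B2 (0.18 to 0.90) and 0.63 in ORC2BP8 (0.26 to 0.99), with an SE of 0.16. The limma adjusted p-values were 0.968, 0.291, 0.199 and 0.113. The mean of both ORC2 lines stood 0.58 above WT (95% interval 0.27 to 0.90, limma adjusted p = 0.0720), the mean of both ORC1 lines 0.29 (limma adjusted p = 0.344) and the mean of all 4 lines 0.44 (95% interval 0.15 to 0.72, limma adjusted p = 0.117). A replicate block was left out of the main fit by a rule that only ORC1BP32 with ORC2B2 failed (correlation 0.081, not above 0.1). With the block, CCNB1 was called in ORC2BP8, in the mean of both ORC2 lines and in the mean of all 4 lines (limma adjusted p = 0.0420, 0.0274 and 0.0483), so its calls depend on that choice. In these comparisons the block called 402, 570 and 709 of all 10797 genes, in place of 101, 115 and 110. Within replicate 1 and within replicate 2 the 3 higher lines ranged from 0.47 to 0.78, and ORC1B14 stood at -0.05 and 0.08. The ORC1 lines differed from each other by -0.55 for ORC1B14 minus ORC1BP32 (SE 0.16, 95% interval -0.91 to -0.19, unadjusted p = 0.00681 and adjusted p = 0.620 by limma). Here 0 of the 4 genes and 0.0185% of all genes were called, while 1 of the 4 and 5.32% of all genes had an unadjusted p under 0.05. The mean of the ORC1 lines was 0.29 below that of the ORC2 lines (95% interval of the difference -0.55 to -0.04, limma adjusted p = 0.633), with 0 of the 4 genes and 0.0463% of all genes called and 1 of the 4 and 6.97% of all genes at an unadjusted p under 0.05. Between ORC2B2 and ORC2BP8 CCNB1 differed by -0.08 (95% interval -0.45 to 0.28), again with 0 of the 4 genes called beside 0.222% of all genes, and 0 of the 4 beside 5.46% at an unadjusted p under 0.05.

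CCNB1 lies on chromosome 5 among genes that were lower in ORC1B14, which was known from these data beforehand. Of its 20 tested neighbours, 10 on each side in the RefSeq gene order, 18 were below WT in ORC1B14. Of all genes tested, 55.0% were above WT there. The neighbours' median difference from WT was -1.05 in ORC1B14. In ORC1BP32, ORC2B2 and ORC2BP8 that median was -0.07, -0.10 and -0.10. In ORC1B14 the neighbours' median was -1.29 within replicate 1 and -0.83 within replicate 2. Of the 20, 4 fell there by limma, beside 0.583% of all genes tested called in either direction. Because the stretch was known to be lower from these same values, this count and the p-values below describe it and do not test it. ERBIN, a scaffold protein at epithelial junctions, fell by 1.25 (limma adjusted p = 0.0384), and KGD4, a subunit of the mitochondrial oxoglutarate dehydrogenase complex, fell by 1.07 (limma adjusted p = 0.0464). CDK7, the kinase that activates CDK1 and other cyclin-dependent kinases, fell by 1.19 (limma adjusted p = 0.0464), and RAD17, which loads the checkpoint clamp on damaged DNA, fell by 1.26 (limma adjusted p = 0.0384). All 4 calls ended without either array of WT or ORC1BP32 or without ORC1B14 replicate 1 (highest adjusted p 0.191 to 0.291), those of CDK7, KGD4 and RAD17 also without either ORC2B2 array, that of CDK7 without either ORC2BP8 array and that of KGD4 without ORC1B14 replicate 2.

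Among these genes CCNB1 stood above the local median in each mutant line. Its difference from WT exceeded the neighbours' median by 1.07 in ORC1B14 (1.24 within replicate 1 and 0.91 within replicate 2), 0.63 in ORC1BP32, 0.64 in ORC2B2 and 0.72 in ORC2BP8, as values with no test. With 5 neighbours on each side these became 1.25, 0.73, 0.63 and 0.79, and with 20 on each side 0.92, 0.59, 0.58 and 0.67. The nearest tested gene on one side, SREK1, a splicing regulator, differed by -1.38 in ORC1B14 (limma adjusted p = 0.0701). The nearest on the other side, CENPH, an inner kinetochore protein, differed by 0.42 there (limma adjusted p = 0.406). CENPH and MCCC2, a mitochondrial enzyme of leucine breakdown named here after its value was seen, were the 2 of the 20 neighbours whose difference in ORC1B14 was above that of CCNB1. The part of this stretch in the level of CCNB1 in ORC1B14 was not tested.

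**Figure D2:**
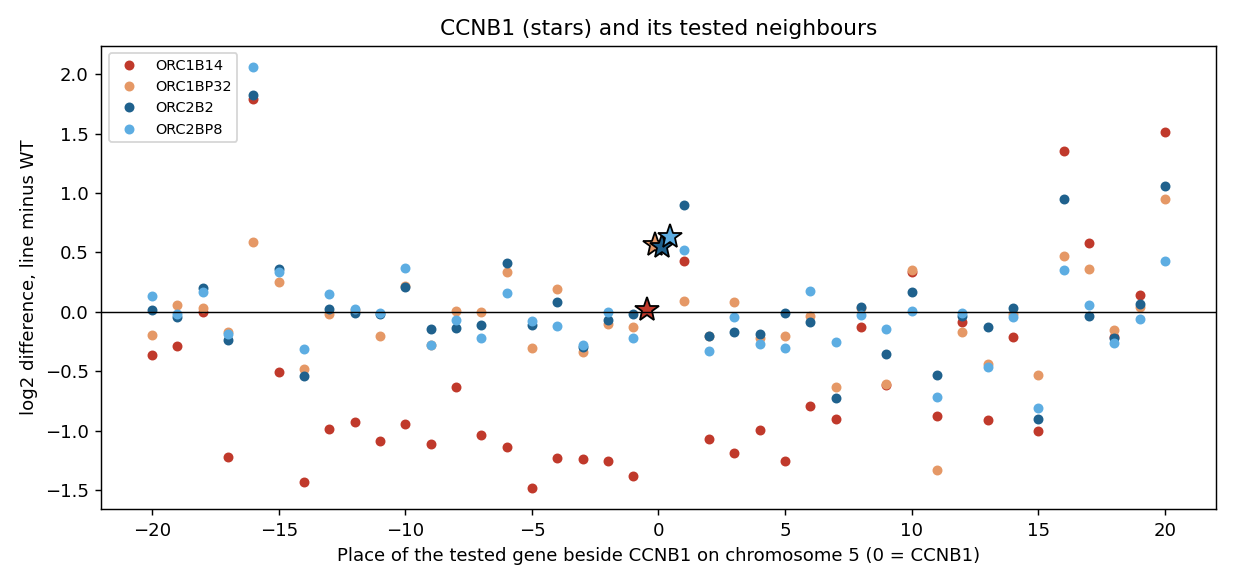
Log2 difference of each mutant line from WT (vertical axis) for CCNB1 (stars at place 0, drawn slightly apart) and its tested neighbours on chromosome 5, up to 20 on each side in gene order (horizontal axis), coloured by line. In ORC1B14 the 20 nearest neighbours have a median of -1.05 and CCNB1 stands at 0.02, while in the other lines the medians are -0.07 to -0.10 and CCNB1 stands at 0.54 to 0.63.

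The other 3 genes lay in stretches whose medians were near 0. For FOXM1 on chromosome 12 the 20 neighbours had medians of 0.09, 0.10, 0.04 and 0.14 (ORC1B14, ORC1BP32, ORC2B2, ORC2BP8), and in each line 0 of the 20 stood above FOXM1. Its nearest tested neighbours were NRIP2, at 0.36, 0.09, -0.17 and 0.07, and RHNO1, a checkpoint protein, at 0.40, -0.0028, 0.21 and 0.36. For MKI67 on chromosome 10 the medians were -0.0093, 0.13, -0.02 and 0.0020, and 9, 11, 8 and 2 of the 20 stood above it. The genes beside it were FOXI2, a forkhead factor, and MGMT, which removes alkyl groups from guanine in DNA. For STIL on chromosome 1 the medians were 0.06, -0.03, -0.01 and 0.06, with 5, 2, 1 and 0 of the 20 above it and with PDZK1IP1 and FOXE3 beside it.

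MKI67 differed little between the lines and was called in no comparison. Its log2 values were 10.86 and 10.79 in WT, 10.67 and 11.08 in ORC1B14, 10.86 and 11.03 in ORC1BP32, 11.15 and 10.94 in ORC2B2, and 11.39 and 11.06 in ORC2BP8. Both ORC2 lines stood above both WT arrays, while the ORC1 lines overlapped WT, and ORC1B14 replicate 1 was the lowest array of all. Each line overlapped the next in the order of means, from 10.83 ± 0.050 in WT through 10.87 ± 0.29 in ORC1B14, 10.94 ± 0.12 in ORC1BP32 and 11.05 ± 0.15 in ORC2B2 to 11.22 ± 0.23 in ORC2BP8 (SD, n = 2).

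The differences of MKI67 from WT were 0.05, 0.12, 0.22 and 0.39 in ORC1B14, ORC1BP32, ORC2B2 and ORC2BP8 (SE 0.18, limma adjusted p = 0.921, 0.888, 0.712 and 0.343). In the mean of all 4 lines the difference was 0.19 with a 95% interval from -0.12 to 0.51 (limma adjusted p = 0.525), 0.15 within replicate 1 and 0.24 within replicate 2. The ORC1 lines stood 0.23 below the ORC2 lines in mean (95% interval of the difference -0.51 to 0.05), but by -0.51 within replicate 1 and 0.06 within replicate 2, so the sign differed between the replicate numbers.

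STIL stood above both WT arrays on all 8 mutant arrays, by 0.0095 on the closest pair of arrays, both of replicate 1, and was called in no comparison. Its log2 values were 9.44 and 9.19 in WT, 9.45 and 9.72 in ORC1B14, 9.51 and 9.68 in ORC1BP32, 9.98 and 9.55 in ORC2B2, and 9.87 and 9.53 in ORC2BP8. WT replicate 1 nearly reached ORC1B14 replicate 1, and the 4 mutant lines overlapped one another. The means were 9.31 ± 0.17 in WT, 9.58 ± 0.19 in ORC1B14, 9.59 ± 0.12 in ORC1BP32, 9.70 ± 0.24 in ORC2BP8 and 9.76 ± 0.31 in ORC2B2 (SD, n = 2). The differences from WT were 0.27, 0.28, 0.45 and 0.39 in ORC1B14, ORC1BP32, ORC2B2 and ORC2BP8 (SE 0.21, limma adjusted p = 0.536, 0.716, 0.430 and 0.422). In the mean of all 4 lines STIL stood 0.35 above WT (95% interval -0.01 to 0.70, limma adjusted p = 0.306), 0.27 within replicate 1 and 0.43 within replicate 2.

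FOXM1 and STIL were thus the 2 of the 4 genes whose 8 mutant arrays all stood above both WT arrays, a pattern held by 7.96% of all genes tested. Both arrays of a line stood above both WT arrays for FOXM1 and STIL in ORC1B14, for FOXM1, CCNB1 and STIL in ORC1BP32, and for all 4 genes in both ORC2 lines. Over all genes tested that pattern had a share of 27.3% for ORC1B14 and 23.7% for ORC1BP32, and of 24.5% and 24.5% for the ORC2 lines. All these comparisons share the same 2 WT arrays.

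**Figure D3:**
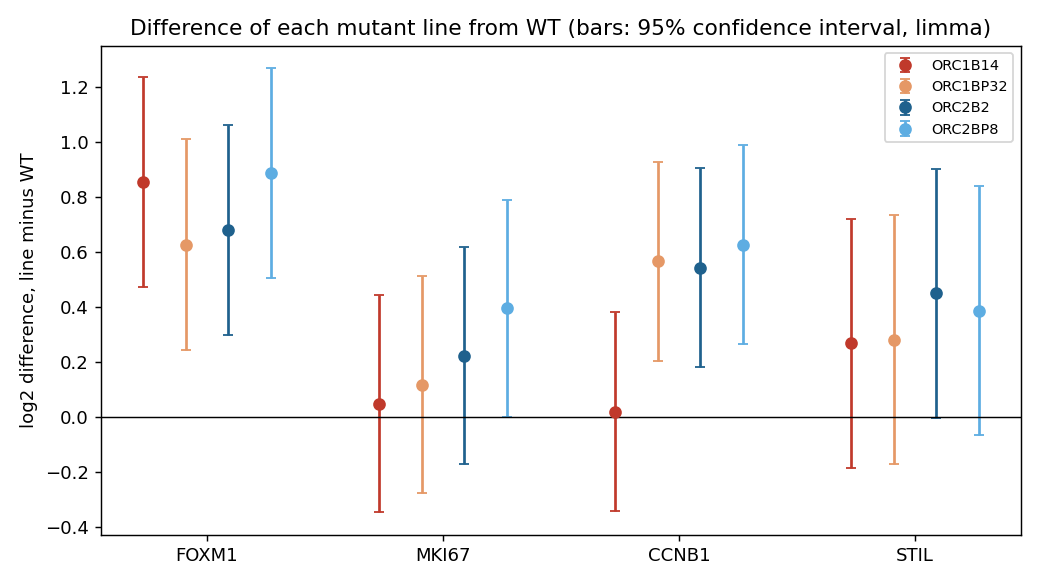
Log2 difference from WT (vertical axis) of FOXM1, MKI67, CCNB1 and STIL in each of the 4 mutant lines (colours), with bars for the 95% confidence interval of the limma fit. The intervals of FOXM1 lie above 0 in all 4 lines, those of CCNB1 in 3 lines, and those of MKI67 and STIL include 0 in all 4.

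Over the 10 arrays MKI67 and STIL followed each other most closely of the 6 pairs (r = 0.818, Spearman's rho 0.891), and r was 0.815 among the 8 mutant arrays alone. FOXM1 gave r = 0.37 with MKI67, 0.49 with CCNB1 and 0.54 with STIL over all 10 arrays. Among the 8 mutant arrays these were 0.04, -0.21 and -0.0060, so they rested on the 2 WT arrays, which were also the 2 farthest from the median of FOXM1. CCNB1 gave r = 0.55 with MKI67 and 0.51 with STIL, and 0.42 and 0.20 among the mutant arrays. These are descriptions over 5 lines with 2 arrays each, with no test.

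The genes whose values followed FOXM1 most closely over the 10 arrays were E2F1, the transcription factor of S phase entry (r = 0.98), HDHD3 (r = 0.97) and CDCA8, also named borealin, a subunit of the chromosomal passenger complex (r = 0.97). For STIL they were BUB1, a kinase of the spindle checkpoint (r = 0.97), CENPI, an inner kinetochore protein (r = 0.92), and KIFBP, which binds kinesins (r = 0.91). MKI67 was followed by TMED2, a cargo receptor of the early secretory pathway (r = 0.92), BUB1 (r = 0.92) and ULK4 (r = 0.91). CCNB1 was followed by ZNF207, also named BuGZ, a spindle protein that binds BUB3 (r = 0.94), CHLSN (r = 0.91) and SLC66A1, a lysosomal transporter (r = 0.91). Against WT, E2F1 rose by 0.91 in the mean of all 4 lines (limma adjusted p = 0.0366), CDCA8 stood at 0.66 (0.0543), CENPI at 0.61 (0.105), BUB1 at 0.43 (0.260), SLC66A1 at 0.43 (0.168) and KIFBP at 0.40 (0.186). The others stood nearer to WT: HDHD3 at 0.32 (limma adjusted p = 0.270), CHLSN at 0.23 (0.489), ZNF207 at 0.22 (0.379), ULK4 at 0.09 (0.831) and TMED2 at 0.06 (0.823). With the mean of each replicate number subtracted, the closest gene became HDHD3 for FOXM1 (r = 0.985), EXOC8 for MKI67 (r = 0.960) and DRC9 for CCNB1 (r = 0.951) and was still BUB1 for STIL (r = 0.977), while E2F1 and TMED2 each ranked at place 4. These are the highest of 10797 correlations for each gene over few arrays, and the arrays of a line share their source. The correlated genes were picked on these same arrays, so their differences from WT are not independent of those of the 4 genes.

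The partners and targets of FOXM1, CCNB1 and STIL, with other cell cycle genes, were described by 7 lists, none of which holds MKI67. Every gene of these lists that was named on the array passed the filter. In the mean of all 4 mutant lines the regulators around FOXM1, with MYBL2 and the MuvB or DREAM complex, had a median of 0.28 over 13 of 15 listed genes, 11 of them above 0, and 2 rose, FOXM1 and MYBL2. Without WT replicate 1 that median was 0.17, and without WT replicate 2 it was 0.41. Over all 10797 genes the median was 0.04, 5980 (55.4%) were above 0, 17.3% had an unadjusted p under 0.05, 45 rose and 65 fell. MYBL2, the B-Myb factor that joins MuvB in S phase, rose by 1.28 (SE 0.24, limma adjusted p = 0.0391). It stood at 7.69 ± 0.44 in WT (SD, n = 2) and between 8.60 and 9.54 on the mutant arrays.

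RBL2, the pocket protein p130 that holds these genes down in resting cells as a part of DREAM, was the lowest of that list. It fell by 1.49 in ORC2BP8 (limma adjusted p = 0.00921) and by 0.95 in the mean of both ORC2 lines (limma adjusted p = 0.0361), and stood at -0.61, -0.56 and -0.42 in ORC1B14, ORC1BP32 and ORC2B2. On chromosome 16, the 20 neighbours of RBL2 had a median of -0.56 in ORC2BP8, with 4 of them called beside 0.935% of all genes. In ORC1B14, ORC1BP32 and ORC2B2 that median was 0.03, 0.12 and 0.12. The part of that stretch in the RBL2 value was not tested. The ORC2BP8 call of RBL2 ended without either WT array or ORC2BP8 replicate 2 (highest limma adjusted p 0.0867), and that in the mean of both ORC2 lines without either array of WT, ORC1BP32 or ORC2B2 or ORC2BP8 replicate 2 (highest 0.220).

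Of 50 tested G2 and mitotic genes under FOXM1 and MuvB, 49 stood above 0 in the mean of all 4 lines, with a median of 0.41, 30 had an unadjusted p under 0.05 by limma, and 2 rose after adjustment. SKA3, which helps couple kinetochores to microtubules, rose by 0.84 (SE 0.15, limma adjusted p = 0.0294) and was also called in ORC2BP8 (0.98, adjusted p = 0.0377) and in the mean of both ORC2 lines (0.97, 0.0210). SPAG5, the spindle protein astrin, rose by 0.71 (limma adjusted p = 0.0373) and was called in ORC1B14 (0.91, 0.0464). The lowest was KIF14, a kinesin of cytokinesis, at -0.16. The medians of this list were 0.41, 0.30, 0.45 and 0.46 in ORC1B14, ORC1BP32, ORC2B2 and ORC2BP8, so CCNB1, at 0.02, 0.57, 0.54 and 0.63, stood below the list's median in ORC1B14 and above it in the other 3 lines.

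The cyclin B, CDK1 and mitotic kinase list, which shares CCNB1, BUB1 and others with the list before it, had a median of 0.41 over 20 tested genes, 19 of them above 0, with 0 called by limma and 12 at an unadjusted p under 0.05. With the replicate block 7 of the 20 were called, beside 709 of all 10797 genes. After quantile normalization 3 of the 20 were called higher, a count for which the share of all genes is not given here. Its highest gene was CDC25A, the phosphatase that activates cyclin-dependent kinases, at 0.85 (limma adjusted p = 0.0589), and its lowest was ENSA, an inhibitor of the mitotic phosphatase PP2A, at -0.14. The centriole duplication genes around STIL had a median of 0.12 over 17 genes, 12 above 0, with 0 called by limma and 2 at an unadjusted p under 0.05, from CEP120 at -0.59 to C2CD3 at 0.61. STIL, at 0.35, stood above the median of that list, which was 0.026 without WT replicate 1, 0.22 without WT replicate 2, 0.20 without ORC1B14 replicate 1, 0.053 without ORC1B14 replicate 2 and 0.076 without ORC1BP32 replicate 2. The anaphase-promoting complex, which marks cyclin B1 for destruction, had a median of 0.10 over 18 genes, 14 above 0, with 0 called by limma and 3 at an unadjusted p under 0.05, from the subunit CDC16 at -0.41 to the ubiquitin-conjugating enzyme UBE2S at 0.62. Its median was -0.0091 without WT replicate 1.

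The p53 and G2 arrest list had 7 of 16 genes named, a median of -0.07, 2 genes above 0, and 0 called by limma and 3 at an unadjusted p under 0.05 in the mean of all 4 lines. Its median lay between -0.21 (without ORC1B14 replicate 1) and -0.0095 (without ORC2BP8 replicate 2) when 1 array was left out, moved by over 1.5 times without any array but those of ORC2B2 and ORC1B14 replicate 2, and was -0.0010 after quantile normalization. SESN2, a stress-induced inhibitor of mTORC1, fell by 1.18 in the mean of both ORC2 lines (limma adjusted p = 0.0394), and SFN, also named 14-3-3 sigma, which holds CDK1 in the cytoplasm, was the highest at 0.39. The G1/S and S phase genes had the highest median of the 7 lists, 0.73, with 25 of 25 tested genes above 0 and 23 of them at an unadjusted p under 0.05. After adjustment 7 rose by limma: MCM2 by 1.09 and MCM4 by 1.07, subunits of the replicative helicase, CDC6, which loads it, by 0.98, the G1/S cyclin CCNE2 by 0.96, E2F1 by 0.91, thymidylate synthase TYMS by 0.85, and UHRF1, which takes part in copying DNA methylation, by 0.71 (adjusted p from 0.0134 to 0.0487). GINS2 had the highest difference, 1.33 (adjusted p = 0.0589), and E2F3 the lowest, 0.25.

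Every call of a list gene given above, SESN2 included, ended without either WT array. In the mean of all 4 lines CDC6 and MCM4 kept theirs without each of the 8 mutant arrays (highest limma adjusted p 0.170 and 0.165 without a WT array), while MYBL2, SKA3, SPAG5, MCM2, CCNE2, E2F1, TYMS and UHRF1 also lost theirs without either ORC1BP32 array or ORC2B2 replicate 2. Some of these 8 did so without other arrays too: ORC2B2 replicate 1 (all but MYBL2), ORC2BP8 replicate 2 (all but MCM2), ORC1B14 replicate 1 (E2F1, MCM2, TYMS and UHRF1) and ORC1B14 replicate 2 (MCM2, TYMS and UHRF1), with highest adjusted p-values from 0.231 to 0.379. SPAG5 in ORC1B14 lost its call without any 1 of the 10 arrays, SKA3 lost its calls in ORC2BP8 without any array of a line other than ORC1B14 and in the mean of both ORC2 lines without either ORC2B2 array or ORC2BP8 replicate 2, and SESN2 lost its call without the latter 3 arrays as well.

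**Figure D4:**
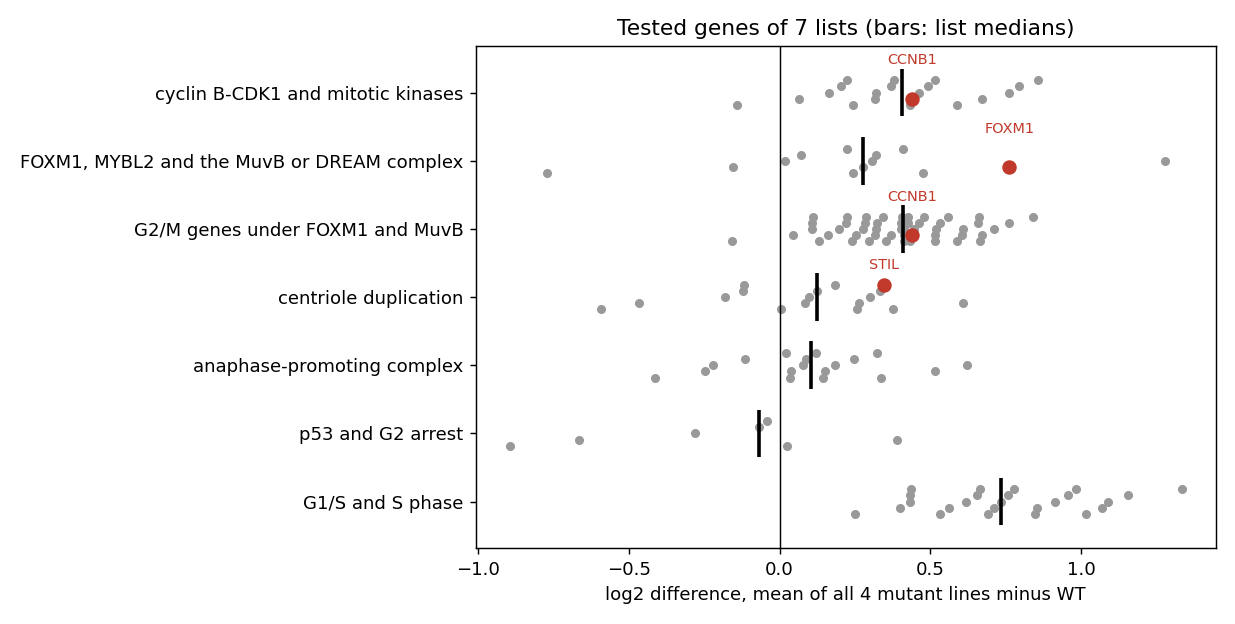
Log2 difference of the mean of all 4 mutant lines from WT (horizontal axis) for each tested gene of the 7 lists (1 row each, dots spread vertically for legibility), with black bars for list medians and FOXM1, CCNB1 and STIL in red. The G1/S and S phase genes have the highest median, 0.73, and both lists that hold CCNB1 have a median of 0.41.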

How the data were processed

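Total RNA of 5 HCT116 lines was extracted with Trizol and hybridised as biotinylated cRNA to 10 Affymetrix arrays, per the labels' protocols. The authors deposited 1 log2 value per probe set (53617) and array, and Affymetrix Expression Console is named in the submitters' processing notes, with no version. The log base was read from the range of the values, 1.45 to 13.7, and fold changes rest on that reading. For normalization and annotation build, the sources used here give no statement.

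Exactly 1 symbol was listed for 16098 probe sets (14884 genes), several for 0 and none for 37519. All 16098 matched RefSeq gene IDs (GRCh38.p14, used for names and gene order). Probe sets at or above the array median on at least 2 arrays were kept (11554), and each gene was represented by its brightest probe set by mean (10797 genes). R 4.3.3 and limma 3.58.1 were used: lmFit on 5 line means over all 10 arrays, eBayes with an intensity trend (5 residual and 5.83 prior degrees of freedom), two-sided, with Benjamini-Hochberg adjustment over all genes tested, for 10 comparisons. The fit was tested on simulated data with independent noise on each array. That test cannot show how the fit behaves where same-numbered replicates deviate together. No 2 arrays held identical values (0 pairs), and the number of arrays limits the precision. Same-numbered replicates correlated in their deviations from line means by 0.081 to 0.568, so every pair of lines was positive. All pairs but ORC1BP32 with ORC2B2 (0.081) were above 0.1. The rule asked for more than 0.1 in every pair, so no replicate block was used, although same-numbered arrays did deviate together.

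The 4 genes, the 7 lists (170 genes) and the alternatives were chosen with earlier results of these data known. By rule the text names the 4 genes, the 3 genes most correlated with each over the 10 arrays, each list's called genes with its highest and lowest in the mean of all 4 lines, the nearest tested neighbour on each side of each gene, and those of CCNB1's 20 neighbours called in ORC1B14. Alternatives changed scaling, filter, probe set choice, spread prior, samples in the fit and arrays. The neighbours of RBL2 and the correlations without 2 arrays were added after the data were seen.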

Additional observations from a re-analysis of the deposited data

How the results depend on the processing

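Of 716 values of the 4 genes recomputed under the alternatives, 667 kept their direction and their side of the threshold, 31 lost a call, 7 gained one and 11 turned sign, all 11 when 1 array was left out. Most of the 667 were uncalled values that stayed uncalled. The main fit called only FOXM1, in ORC2BP8, in the mean of both ORC2 lines and in the mean of all 4 lines. All 31 losses were of these FOXM1 calls. Leaving out an array of a line outside a comparison cannot change its difference. The turned values belonged to small differences, with these ranges over the arrays left out: MKI67 at -0.16 to 0.25 and CCNB1 at -0.034 to 0.071 in ORC1B14 against WT, MKI67 at -0.021 to 0.18 in the mean of both ORC1 lines, FOXM1 at -0.098 to 0.015 for ORC1 minus ORC2 lines, MKI67 at -0.28 to 0.14 and STIL at -0.15 to 0.12 for ORC1B14 minus ORC1BP32, and CCNB1 at -0.23 to 0.058 and STIL at -0.15 to 0.28 for ORC2B2 minus ORC2BP8. The number of the 4 genes called became 0 in ORC2BP8 and in the mean of both ORC2 lines after median centring, without the filter, without the intensity trend and with only the groups compared, and 0 in the mean of all 4 lines after median centring. It became 1 in ORC1B14 after quantile normalization. Leaving out 1 array gave 0 to 1 in ORC2BP8 and in the mean of all 4 lines, and 0 to 2 in the mean of both ORC2 lines. The cause was not tested.

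With the replicate number as a replicate block the count of called genes among the 4 became 2 in ORC2BP8, in the mean of both ORC2 lines and in the mean of all 4 lines (FOXM1 and CCNB1), and 1 in ORC1B14 and in the mean of both ORC1 lines (FOXM1). Of all 10797 genes the block called 709 in place of 110 in the mean of all 4 lines. It called 402 in place of 101 in ORC2BP8 and 570 in place of 115 in the mean of both ORC2 lines. In ORC1B14 it called 496 in place of 63, and in the mean of both ORC1 lines 454 in place of 29. In the mean of all 4 lines the block called 17 of the 50 G2 and mitotic genes and 19 of the 25 G1/S and S phase genes. Median centring called 0 and 2 of them there, counts for which the share of all genes is not given here. Of the other lists the replicate block called 7 of 20 cyclin B and mitotic kinase genes, 4 of 13 around FOXM1 and MuvB, 1 of 18 of the anaphase-promoting complex, 1 of 7 of p53 and G2 arrest and 0 of 17 of centriole duplication. The 1 of 18 is near the share of all genes called there, 709 of 10797.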
